A study of Mus musculus with 4 samples.

Results

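The 10 genes described here are core identity genes of regulatory T cells (Tregs): Foxp3, Ikzf2, Ikzf4, Il2ra, Tnfrsf18, Lrrc32, Nrp1, Ctla4, Icos and Tigit. They were chosen by name and Ensembl identifier rather than by a rule on read counts, though with earlier results of these data known, and all 10 were present among the 51121 gene start site windows of the deposited table. The study profiled H3K9me3, a histone mark, by chromatin immunoprecipitation and sequencing (ChIP-seq) in Tregs sorted from the spleens of C57BL/6 mice. Its 4 libraries are a precipitate and an input taken without antibody from each of 2 genotypes, with 1 library of each kind. The table has 1 column per genotype. In the KAP1-sufficient group (WT, as the sample titles call it) the cells carried Foxp3cre and both intact KAP1 alleles (KAP1+/+), and in the KAP1-deficient group (KO) they carried Foxp3cre and KAP1 alleles labelled f/f. Foxp3cre, a recombinase under Foxp3 control that limits the deletion to Foxp3-expressing cells, was thus present in both groups. The sources used here do not say whether it sits in the Foxp3 locus itself or in a transgene, how old and of which sex the mice were, or whether animals were pooled.

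H3K9me3 is a repressive mark of compacted chromatin, found mainly at repeats, transposons and silenced gene clusters. KAP1 (TRIM28) is a scaffold protein tethered to chromatin by KRAB zinc finger factors, where it gathers the enzymes that write this mark. Tregs restrain immune responses. Their state depends on the transcription factor Foxp3 and on a set of surface receptors that many of them express at high levels. Transcription of the 10 genes was not measured here.

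No antibody is named in the column headings. Each column was read as the H3K9me3 library because the study describes sequencing of the precipitate, and no input column was analysed, so the reads below were not set against a background and are not shown to be enrichment. Over all windows the WT library held 480326 reads (median 10 per window, quartiles 5 and 13) and the KO library 228009 (median 4, quartiles 2 and 6). At this depth 1 read is worth 2.08 RPM (reads per 1000000 reads in windows) in the former and 4.39 RPM in the latter. With 1 library per genotype there is no replicate check. Poisson intervals (of a count) and exact Clopper-Pearson intervals (of a ratio) are given at 95% and cover counting error only. The read count of the KAP1 gene itself was not analysed here, because identifiers other than those of the 10 genes were not paired with names.

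The sequence before the start is shown for the genes on which the comparison turns: Foxp3, with the lowest ratio between the genotypes, Il2ra, with the highest ratio and the most reads over both libraries, and Tnfrsf18, with the most reads in the WT library. Each is the 250 bases before the RefSeq start (GRCm38.p6, the assembly also called mm10), 5′ to 3′ on the strand of the gene, and capitals mark CG dinucleotides, where vertebrate DNA is methylated. All 3 stretches are on the plus strand, at chrX:7579426-7579675 for Foxp3, chr2:11642542-11642791 for Il2ra and chr4:156026072-156026321 for Tnfrsf18, and each ends 1 base before its gene.
Foxp3: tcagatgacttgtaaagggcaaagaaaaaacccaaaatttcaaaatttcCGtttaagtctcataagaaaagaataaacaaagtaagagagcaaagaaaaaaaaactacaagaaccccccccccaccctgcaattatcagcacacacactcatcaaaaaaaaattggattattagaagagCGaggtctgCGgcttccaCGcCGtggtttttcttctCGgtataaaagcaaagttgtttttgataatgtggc
Il2ra: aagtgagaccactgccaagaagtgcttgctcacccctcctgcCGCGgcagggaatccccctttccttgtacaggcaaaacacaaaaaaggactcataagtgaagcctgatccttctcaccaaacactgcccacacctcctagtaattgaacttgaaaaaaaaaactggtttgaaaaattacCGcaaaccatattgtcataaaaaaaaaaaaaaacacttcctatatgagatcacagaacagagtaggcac
Tnfrsf18: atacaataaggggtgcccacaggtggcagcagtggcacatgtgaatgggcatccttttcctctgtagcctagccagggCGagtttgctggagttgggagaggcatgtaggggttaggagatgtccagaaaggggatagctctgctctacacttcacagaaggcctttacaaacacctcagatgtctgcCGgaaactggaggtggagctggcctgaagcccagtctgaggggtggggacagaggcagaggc

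These promoter stretches hold no more CG dinucleotides than the median promoter. Foxp3 has 6, Il2ra 3 and Tnfrsf18 2, against a median of 6 and quartiles of 2 and 16 over 32851 promoter stretches of the same length in the RefSeq table. Their GC content was 37.6%, 42.4% and 56.0%, against a median of 52.4%. RefSeq promoters were found for 6 of the 10 genes. For Icos, Ikzf2, Ikzf4 and Lrrc32 no stretch was found in the promoter set used here. The stretch before Ctla4 held 7 CG dinucleotides at 42.4% GC, that of Tigit 5 and that of Nrp1 11 at 64.4%, the highest of the 6 genes in both respects. The stretches of Tigit (chr16:43664185-43664434, minus strand) and Nrp1 (chr8:128358823-128359072) lie inside the RefSeq spans of these genes. They thus precede an internal start and not the outer end of the gene. Foxp3 has another RefSeq start 807 bases downstream, with 7 CG dinucleotides before it. The letters TATAA, searched on both strands, began at position -32 from the first Foxp3 start and at -217 from the Ctla4 start, and occurred in 22.8% of all promoter stretches. CCAAT, also searched on both strands, began at -89 from the first Foxp3 start and occurred in none of the other 6 stretches, and in 33.8% of all. A match is a run of letters, not a binding site. The sources used here do not give the width of the deposited windows or the start sites they are centred on, so these stretches are not the windows themselves.

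Most Treg gene starts held more reads than the median window, in both libraries. In the WT library the 10 genes had between 9 and 25 reads, with a median of 15.5 against 10 for all windows. In the KO library they had between 3 and 17, with a median of 9 against 4. In each library 9 of the 10 lay above the median window and 8 at or above its upper quartile. Many windows share the same count, so the share of all windows at or above that quartile is larger than its name implies. In the WT library its 13 reads, the count of Lrrc32, lie at the 72.4th percentile. Below the median window were Ikzf4 in the WT library and Foxp3 in the KO library. All windows include 6147 with 0 reads in both libraries, which lowers the medians and quartiles. The 10 genes are protein-coding, but they were set against all windows and not against protein-coding genes alone. Whether gene class plays a part in their read level was not tested. Among windows with any reads, Ikzf4 lay at the 39.4th percentile in the WT library and Foxp3 at the 30.4th in the KO library. The next lowest there were Ikzf2 in the WT library (61.9th) and Ikzf4 in the KO library (55.6th). Some genes stood near the top: Tnfrsf18 at the 99.3rd and Icos at the 98.9th percentile of the WT library, and Il2ra at the 99.3rd of the KO library. The most extreme windows, which held up to 615 and 408 reads, were still far above all 10. Windows above the highest gene made up 0.567% of the total in the WT library and 0.620% in the KO library.

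**Figure D1:**
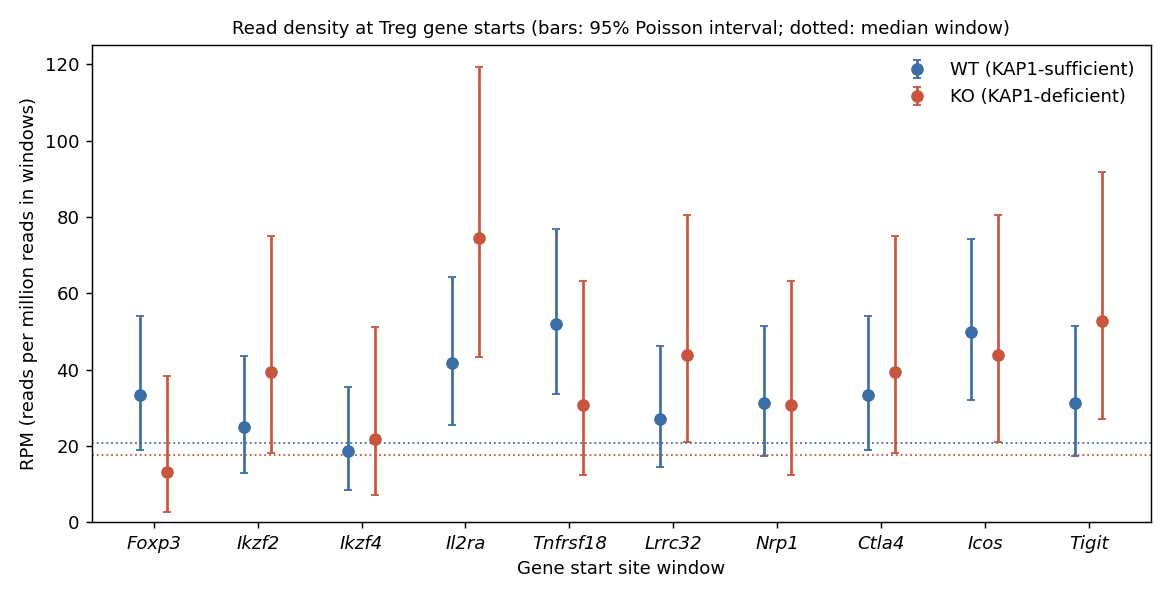
Read density in RPM (y axis) at the start of each Treg gene (x axis) in the WT (blue) and KO (red) library, with 95% Poisson intervals; dotted lines mark the median window of each library. Il2ra stands highest in the KO library (74.6), Foxp3 lowest (13.2), and the intervals of the libraries overlap for every gene.

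Between the genotypes, the 10 genes lay on both sides of the ratio of the whole libraries, none of them farther from it than its reads could resolve. Their ratio of KO to WT reads, scaled to the total reads of each library, was above 1 for 6 genes (Il2ra, Tigit, Lrrc32, Ikzf2, Ctla4 and Ikzf4) and below 1 for 4 (Nrp1, Icos, Tnfrsf18 and Foxp3). Over the windows past the low-count filter given below, 46.7% had a log2 ratio above 0. The exact 95% interval took in 1 for all 10. With 2 reads added, scaled to library size, to steady low counts, 1 gene (Foxp3) lay past 2-fold lower and 0 lay past 2-fold higher. The background is the 35540 windows whose 2 counts averaged 5 reads or more, a filter that all 10 genes passed. Of these windows 8.72% lay past 2-fold lower and 5.26% past 2-fold higher (14% in all), so 1 gene in 10 is near the background. Where the interval was also required to exclude the ratio of the whole libraries, 0 of the 10 genes were called, against 1.81% of windows lower and 2.49% higher (4.3% in all). No test between genotypes was possible with 1 library each.

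Foxp3, the transcription factor that defines the Treg lineage (ENSMUSG00000039521, chrX:7579676-7595243), held 16 reads in the WT library (95% Poisson interval 9.15 to 25.98) and 3 in the KO library (0.619 to 8.77). The KO library was low here, where the ratio of the whole libraries would give 7.60 reads. It was the lowest of the 10 genes, at the 38.8th percentile of all windows in that library, against the 86.1st percentile in the WT library. The depth-scaled ratio was 0.395 (exact 95% interval 0.0738 to 1.38), or 0.483 with 2 reads added. The interval runs from a far lower to a somewhat higher density. Among the 2051 windows with the same 19 reads over both libraries, the median was 6 KO reads (quartiles 4 and 7), and 153 windows had exactly the counts of Foxp3. The 16 WT reads would have needed to be met by at most 1 or at least 17 KO reads for the interval to leave out 1.

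Both Ikaros family members had ratios above 1, with intervals that overlap that of Foxp3. Ikzf2, which encodes Helios, a transcription factor that stabilises the Treg state (ENSMUSG00000025997, chr1:69531207-69687351), held 12 reads in the WT and 9 in the KO library. Its KO count was above the 5.70 reads that the library ratio gives, a depth-scaled ratio of 1.58 (0.588 to 4.09). Ikzf4, which encodes Eos, a partner of Foxp3 in gene repression (ENSMUSG00000002578, chr10:128630839-128669671), had the fewest reads of the 10 genes, 9 and 5. These lay close to the library ratio, which gives 4.27, at a depth-scaled ratio of 1.17 (0.308 to 3.89). For Ikzf4 no KO count, not even 0, would have excluded 1 on the lower side. The 3 transcription factor genes together held 37 and 17 reads, a ratio of 0.968 (0.511 to 1.76).

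Il2ra encodes CD25, the chain that gives the interleukin-2 receptor its high affinity (ENSMUSG00000026770, chr2:11642792-11693194). It held 20 reads in the WT library (12.2 to 30.9) and 17 in the KO library (9.90 to 27.2). This was the highest KO count of the 10 genes, at the 99.3rd percentile of that library, and the gene stood high in the WT library too, at the 95.6th. The depth-scaled ratio was 1.79 (0.881 to 3.60), the highest of the 10, against 9.49 KO reads at the library ratio. Windows with this many reads were richer in KO reads in general: among the 107 windows with 37 reads in all, the median was 14 KO reads, with quartiles of 12 and 17, and Il2ra lay at their 76.6th percentile.

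Tnfrsf18 encodes GITR, a costimulatory receptor of the tumour necrosis factor receptor family (ENSMUSG00000041954, chr4:156026322-156028894). It held 25 reads in the WT library (16.2 to 36.9), the most of the 10 genes and at the 99.3rd percentile, and 7 in the KO library (2.81 to 14.4), at the 78.9th. Its KO count lay under the 11.9 reads of the library ratio, with a depth-scaled ratio of 0.590 (0.215 to 1.40). Among the 237 windows with the same 32 reads, the median was 11 KO reads (quartiles 9 and 14), and Tnfrsf18 lay at their 9.28th percentile.

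Lrrc32 encodes GARP, which holds latent TGF-beta on the Treg surface (ENSMUSG00000090958, chr7:98489305-98501831), and had 13 and 10 reads, a depth-scaled ratio of 1.62 (0.636 to 4.0). Nrp1 encodes neuropilin-1, a semaphorin receptor that marks Tregs of thymic origin (ENSMUSG00000025810, chr8:128358591-128505476), and had 15 and 7 reads. The latter is almost exactly the 7.12 reads of the library ratio, so its ratio of 0.983 (0.339 to 2.56) was the nearest to 1 of the 10. Over Il2ra, Tnfrsf18, Lrrc32 and Nrp1 the sums were 73 and 41 reads, a ratio of 1.18 (0.787 to 1.76), within which the highest and the second lowest single ratios stand side by side.

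Of Ctla4, Icos and Tigit, receptors that tune T cell costimulation as Tnfrsf18 also does, Ctla4 and Tigit had ratios above 1 and Icos a ratio below 1, all with intervals that take in 1. Ctla4, which encodes an inhibitory receptor that competes with CD28 for its ligands (ENSMUSG00000026011, chr1:60909025-60915832), held 16 and 9 reads, a depth-scaled ratio of 1.18 (0.462 to 2.85). Icos, which encodes a costimulatory receptor (ENSMUSG00000026009, chr1:60960773-61000322), had 24 reads in the WT and 10 in the KO library, which puts its ratio at 0.878 (0.375 to 1.90). These counts lay at the 98.9th percentile of the WT library, above that of Il2ra, and at the 92.6th of the KO library. Ctla4 and Icos are neighbours, with RefSeq starts 51748 bases apart, and whether their windows share reads was not tested.

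Tigit, which encodes an inhibitory receptor (ENSMUSG00000071552, chr16:43626137-43665125), held 15 reads in the WT and 12 in the KO library, a ratio of 1.69 (0.720 to 3.86). Its KO count was the second highest of the 10, at the 96.3rd percentile of that library, against the 82.2nd in the WT library. Ctla4, Icos and Tigit together held 55 and 31 reads, a ratio of 1.19 (0.739 to 1.88). With Tnfrsf18 counted among them, the sums were 80 and 38 reads and the ratio was 1.001 (0.662 to 1.49), with 2 genes above 1 and 2 below.

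**Figure D2:**
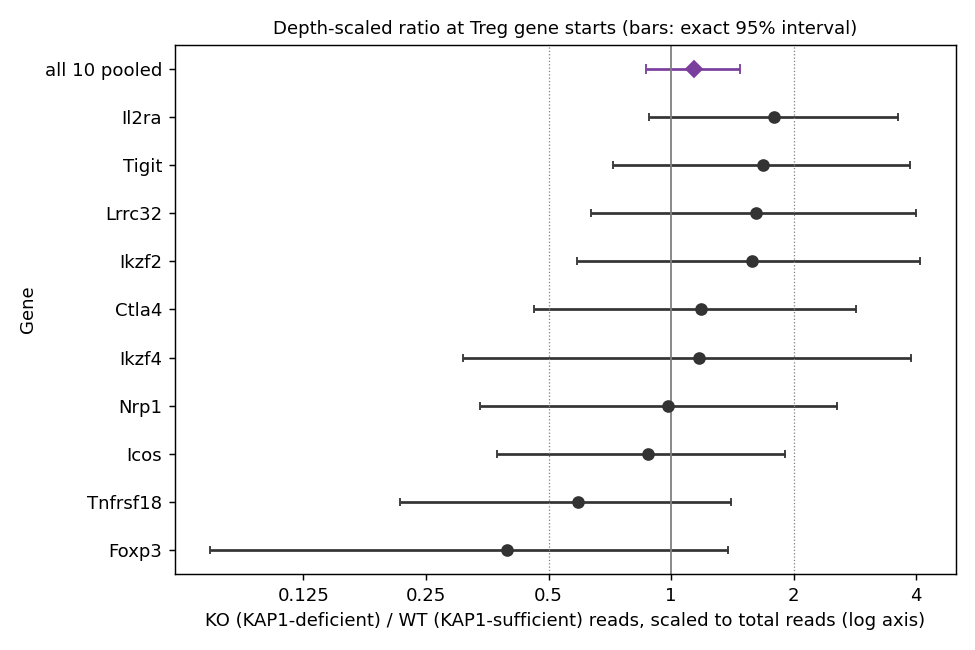
Depth-scaled ratio of KO to WT reads (x axis, log scale) for each Treg gene and for the 10 genes pooled (diamond), with exact 95% intervals; the solid line marks 1 and the dotted lines 2-fold. Ratios run from 0.395 for Foxp3 to 1.79 for Il2ra, and every interval crosses 1.

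Pooled, the 10 genes held 165 WT and 89 KO reads, where the library ratio gives 78.3. The depth-scaled ratio was 1.14 (0.868 to 1.48). Leaving out one gene at a time gave ratios from 1.05 without Il2ra to 1.23 without Tnfrsf18, and 1.22 without Foxp3. The pooled value can also be set beside windows of like read number, because in all windows the ratio moved with reads: it was 0.921 (0.903 to 0.940) in the lowest decile of windows past the filter, with 10 to 11 reads over both libraries, and 1.21 (1.20 to 1.23) in the highest, with 28 or more. Il2ra, Icos and Tnfrsf18 lie in that highest decile. With the expected ratio taken from the decile of each gene, the pooled ratio was 1.04 (0.797 to 1.36).

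**Figure D3:**
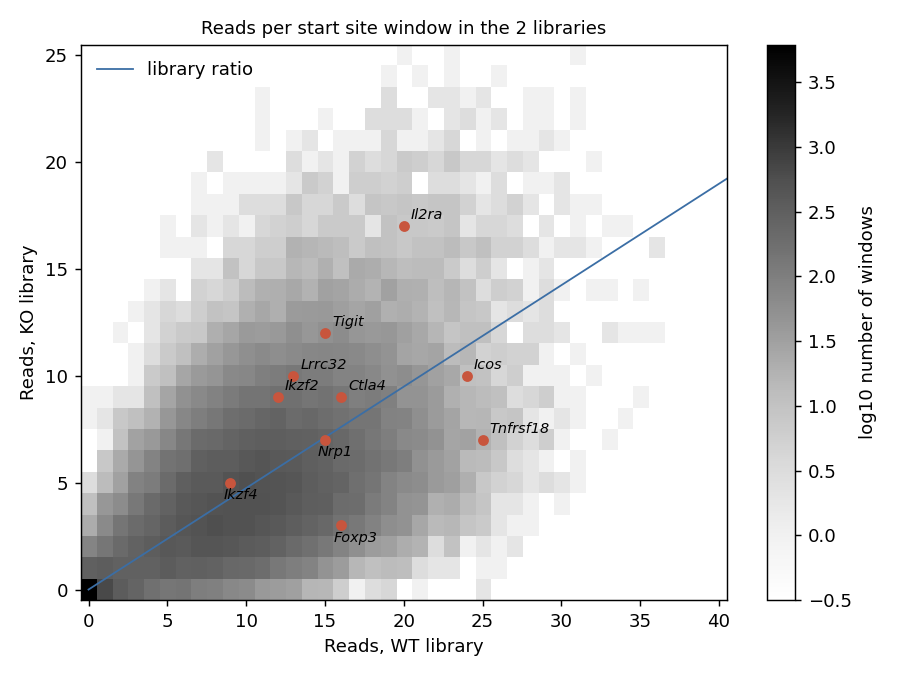
Reads per window in the WT (x axis) and KO (y axis) library; grey shading gives the number of windows at each pair of counts on a log scale, red points are the Treg genes and the line is the ratio of the whole libraries. Il2ra (20 and 17 reads) lies above the line and Foxp3 (16 and 3) and Tnfrsf18 (25 and 7) below it, all among other windows; 16 windows lie beyond the axes.

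The spread among the 10 genes was like that among windows at large. Their log2 ratios, with 2 reads added, ran from -1.05 for Foxp3 to 0.76 for Il2ra with a median of 0.19 and an SD of 0.60, beside a median of -0.05 and an SD of 0.69 over the 35540 windows. Squared deviations of the read shares from the library share averaged 1.18 times the binomial variance in the 10 genes and 1.18 times in all windows past the filter. Placed among windows with its own number of reads, Foxp3 lay at the 7.09th percentile of KO reads, Tnfrsf18 at the 9.28th and Icos at the 23.9th. Nrp1 lay at the 48.4th, Ctla4 at the 62.6th, Ikzf4 at the 64.1st and Il2ra at the 76.6th, and Ikzf2, Tigit and Lrrc32 were highest at 83.7, 84.4 and 85.7. These positions are descriptions and not tests, and the genes spread to both sides of the middle. In the order of ratios, the intervals of all neighbours overlapped widely. The ratio of Il2ra was 4.53 times that of Foxp3 (exact conditional 95% interval 1.01 to 27.7), and this pair is the extreme of 45 possible pairs, so its interval is too narrow. The ratio of Il2ra was 3.04 times that of Tnfrsf18 (0.947 to 10.3).

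**Figure D4:**
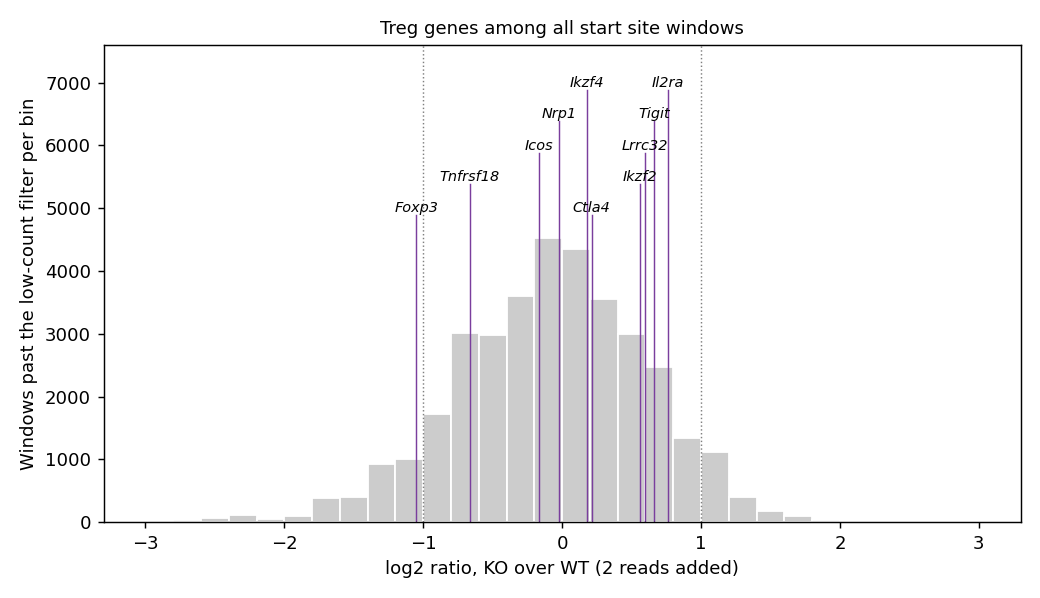
Distribution of the log2 ratio of KO over WT reads (x axis, 2 reads added) over the 35540 windows past the low-count filter (grey, windows per bin on the y axis), with each Treg gene as a vertical line; dotted lines mark 2-fold. Foxp3, at -1.05, is the one gene past a dotted line, and the others lie between -0.67 and 0.76.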

How the data were processed

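The authors deposited whole-number read counts in windows around transcription start sites for 51121 Ensembl mouse identifiers, 1 column per genotype, per the file headers. The submitters' processing notes name Bowtie2 2.2.9, Picard 2.1.1, bedtools 2.26.0 and the mouse build mm10. The sources used here do not give their roles, the window width, the annotation or any filter on duplicates or mapping quality. Strict filters would lower counts, and close start sites could share reads.

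The 10 genes and the tests were chosen with earlier results of these data known. All 10 genes are named whatever their values. Scaling to total reads in windows hides a difference in overall H3K9me3 between the genotypes. The log2 ratio had 2 reads added, scaled to library size. Percentiles are mid-ranks among all windows. Reference tables paired 0 of 51121 identifiers with symbols, so the 2 planned lists of other Treg genes and Foxp3 regulators were not analysed. Positions and promoters were matched by symbol to RefSeq, GRCm38.p6, and the sequences are credited to RefSeq. The printed stretches follow the planned rule, except that none was found for Ikzf4, the gene with the fewest reads. The term "most reads" was applied to both libraries together and to the WT library. With 1 library per genotype no model was fitted and no p-value is given. The calling and the intervals were tested on simulated Poisson counts, and so not on any spread beyond counting error. Percentiles among windows with the same number of reads, the pool without Foxp3, the pairs of genes compared and the pool of Tnfrsf18 with Ctla4, Icos and Tigit were chosen after seeing the data. No column was left unused (0). The software was scipy 1.17.1, pandas 2.3.3, numpy 2.4.6 and matplotlib 3.10.9 under Python 3.11.15.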

Additional observations from a re-analysis of the deposited data

How the results depend on the processing

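All values rest on 1 library per genotype and on 3 to 25 reads per gene and library, so depth limits every single-gene statement. The pooled ratio of 1.14 stayed within its counting interval under all 6 alternatives, which reuse these reads or leave out 1 gene. That interval is wide beside the changes they make, so this is no sign of stability. The pooled ratio ran from 1.04 (0.797 to 1.36) with the expected ratio of the same decile of reads to 1.22 (0.921 to 1.60) without Foxp3. With scaling by the median of ratios (a log2 shift of -0.06) it was 1.19, without Il2ra 1.05, and as the median of the single-gene ratios 1.14. All these values are above 1, but each interval given for an alternative takes in 1, so the direction is not resolved. The count of 1 gene past 2-fold lower, Foxp3, fell to 0 when 10 reads were added, a choice that pulls low counts towards 1, and was 0 with a mean of at least 10 reads, a filter that Foxp3 does not pass. It was 1 with 0.5 reads added, without the filter and under median-of-ratios scaling. The count past 2-fold higher was 0 at each of these settings. All 40 single-gene alternatives lay within the gene's counting interval. The intervals are wide beside the small changes these settings make, so this could hardly have come out otherwise and is no sign of stability. Foxp3 ranged from 0.420 to 0.673 and Tnfrsf18 from 0.519 to 0.734. Nrp1, at 0.984 to 1.02, was the 1 gene that crossed 1. No replicate could be left out. No paired analysis was possible because there was 1 library per genotype.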
